A study of Drosophila melanogaster with 3 samples.

Results

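Translation initiation factors bring the initiator tRNA, the small ribosomal subunit and the capped end of an mRNA together so that protein synthesis starts at the right codon. The 44 protein-coding genes of Drosophila melanogaster whose symbol begins with eIF and a digit were described here, out of 13986 protein-coding genes in the annotation of the dm6 (Release 6) genome. The rule that picks them uses only the symbol, but the set itself, and the lists set beside it, were chosen with earlier results of these data known. For each gene, the peaks of proboscipedia (pb) bound to chromatin were looked up within 1000 bp of an annotated transcript start, which is called the promoter below.

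Binding was measured by chromatin immunoprecipitation and sequencing (ChIP-seq) in whole embryos aged 0 to 24 h, with males and females pooled. The embryos came from 1 transgenic line that carries pb, a Hox gene encoding a homeodomain transcription factor, with green fluorescent protein (GFP) fused at the C terminus, and an antibody against GFP recovered the chromatin, which had been sheared to between 200 and 800 bp. All libraries, 3 in number, were biological replicates from this one group, so there was no condition to compare and no test was made. No library lacking the tag and no control was analysed here, and recovery that depends on pb-GFP cannot be told apart from recovery that does not.

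The authors' combined list and the list of each library held 30000 entries, including background regions, and a further list, filtered by the authors on the irreproducible discovery rate and called thresholded here, held exactly the 2740 strongest entries of the combined one. Entries were ranked by the authors' signal value, with rank 1 the strongest. The deposited −log10 q reached its ceiling at 1199, 1587 and 2523 entries of replicates 1, 2 and 3. That ceiling itself differed between the libraries, at 3.38, 3.5 and 3.7, so these are not counts of equally strong entries. Read depth is unknown.

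In eukaryotes, eIF2 delivers the initiator tRNA and is recharged with GTP by eIF2B. The multi-subunit eIF3 and the small factors eIF1 and eIF1A act on the small ribosomal subunit, and the cap-binding eIF4E, the scaffold eIF4G and the helicase eIF4A select the mRNA. Several of the factors are encoded in the fly by more than one gene, and some of these copies are known for roles in the germ line.

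A thresholded summit lay in the promoter of 12 of the 44 initiation factor genes (27.3%), against 15.3% of all protein-coding genes. The 12 were eIF1, eIF2A, eIF2Bbeta, eIF3a, eIF3c, eIF3f1, eIF3h, eIF4A, eIF4E1, eIF4EHP, eIF4G2 and eIF6, and eIF3h and eIF4EHP had 2 summits each, making 14 peaks. Members of most branches of the pathway were among them, but neither eIF4B nor an eIF4H gene was, nor eIF5 or eIF5B. By the other assignment, 11 members (25.0%) had the start site nearest to a thresholded summit, against 15.0% of all genes. These were the same genes without eIF1 and eIF2Bbeta, whose peaks lay closer to a neighbouring gene, and with eIF4E5. The nearest-gene count was 7 without replicate 1, 6 without replicate 2 and 7 without replicate 3, when only thresholded summits found among the top summits of both other libraries were kept. Kept in that way, the share of all genes fell as well, to 9.73%, 9.02% and 9.85%.

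Sequences around 5 of the summits are shown because they hold the clearest contrasts of the set: the strongest peak of the whole data, 3 promoters with the word TATCGATA, and the homeodomain word TAATTA. They are Release 6 genome sequence on the strand of the initiation factor gene, up to 60 bases to either side of the summit and ended where an annotated untranslated region begins. Capitals mark the words TATCGATA, CGATA and TAATTA on either strand, so that CGATA also appears as TATCG.
eIF2Bbeta (X:2703853-2703951, plus strand): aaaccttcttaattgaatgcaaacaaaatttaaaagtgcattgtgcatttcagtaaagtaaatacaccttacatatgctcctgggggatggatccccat
eIF1 (3L:3222961-3223052, plus strand): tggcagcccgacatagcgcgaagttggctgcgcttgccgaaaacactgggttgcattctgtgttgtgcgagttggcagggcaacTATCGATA
eIF3a (3R:4433896-4433964, minus strand): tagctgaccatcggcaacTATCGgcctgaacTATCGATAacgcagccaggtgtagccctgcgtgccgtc
eIF3f1 (3R:4714183-4714275, minus strand): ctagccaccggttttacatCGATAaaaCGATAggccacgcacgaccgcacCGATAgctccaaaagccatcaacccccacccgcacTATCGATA
eIF4EHP (3R:24109216-24109335, minus strand): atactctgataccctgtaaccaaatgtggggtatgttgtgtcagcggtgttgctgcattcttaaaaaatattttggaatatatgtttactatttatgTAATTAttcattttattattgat
The eIF2Bbeta sequence holds none of these words, though it holds the shorter homeodomain word TAAT at 1 position. TAAT alone is not marked in the sequences. The eIF3f1 sequence holds CGATA several times beside TATCGATA. The eIF4EHP sequence holds TAATTA and is poor in G and C.

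Among the factors acting on the small subunit and on subunit joining, eIF1 and eIF6 had promoter peaks and eIF1A and eIF5 had none. eIF1 guards the choice of start codon. Its peak (3L:3222897-3223099, summit 349 bp upstream of the start) ranked 340 in the combined list and 152, 901 and 489 in replicates 1, 2 and 3. The summit lay 32 bp from the start of RpL28, a ribosomal protein gene transcribed in the opposite direction, so the peak belongs to a promoter region that both genes share. eIF6 keeps the large ribosomal subunit from joining too early. Its peak ranked 102 in the combined list and 102, 72 and 204 in the libraries, with the summit 131 bp upstream of the start on 2R:23850295-23850535. It was among the strongest of the set in every library and lay inside the neighbouring gene ytr, whose start was 641 bp away. eIF1A, the partner of eIF1 in scanning, had its best promoter summit at rank 4754 of the combined list, with ranks 18373, 2388 and 4182 in the libraries, so that only replicate 2 placed it among the top 2740.

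eIF2Bbeta, a subunit of the exchange factor that recharges eIF2, carried the strongest peak of all. It ranked 1 in the combined list and 1 in each of the 3 libraries (X:2703673-2704086). The summit was 680 bp upstream of the eIF2Bbeta start and 39 bp from the start of Ugalt, a UDP-galactose transporter gene on the other strand, whose start lay 719 bp from that of eIF2Bbeta. The peak is therefore closer to Ugalt than to eIF2Bbeta. The other 4 eIF2B subunit genes had no thresholded promoter summit. eIF2Bdelta had the best rank of any gene outside the 12, at 2916 in the combined list and 1939, 5105 and 3427 in the libraries. A thresholded summit of rank 526 lay 1258 bp upstream of eIF2Bgamma, just outside the promoter window.

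Of eIF2 and the eIF2-like factors, eIF2A alone had a thresholded promoter peak, out of 5 genes. eIF2A is known from yeast and mammals as a factor that can bring initiator tRNA to the ribosome by another route. Its summit, 15 bp downstream of a start (3L:21824775-21825184), ranked 1787 in the combined list. It ranked 5750 in replicate 1, 2719 in replicate 2 and 1392 in replicate 3, so the libraries differed about its strength and replicate 1 placed it outside the top 2740. The 3 genes of eIF2 itself had summits of lower rank within 1000 bp, at 5579 for eIF2gamma, 14189 for eIF2alpha and 17624 for eIF2beta in the combined list. The eIF2alpha subunit is the one phosphorylated in stress responses that slow translation. eIF2D, the other eIF2-like gene, had rank 8006.

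Of the 16 genes for eIF3, the scaffold on the small subunit, eIF3a, eIF3c, eIF3f1 and eIF3h had promoter peaks. eIF3a and eIF3c encode the large core subunits. The eIF3c summit lay 11 bp upstream of the start (2R:17665462-17665871) and ranked 609 in the combined list, with 738, 443 and 1155 in the libraries. The start of CCHa1-R, a neuropeptide receptor gene, was 599 bp from this summit. The eIF3a summit lay 13 bp upstream (3R:4433703-4434112) and ranked 1194, with 1292, 1748 and 855 in the libraries. It lay 57 bp from the start of the divergent gene CG1074. Both core subunit genes were thus marked close to the start, in a region shared with another gene, and were in the top 2740 of every library.

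eIF3h and eIF3f1 encode a related pair of eIF3 subunits. The eIF3h gene had summits 20 bp and 247 bp downstream of one of its starts (2L:5052555-5052964 and 2L:5052328-5052737). These lay 227 bp apart within overlapping peak intervals and do not count as independent of each other. The one at 247 bp ranked 567 in the combined list and 472, 624 and 705 in the libraries, and the one at 20 bp ranked 1120 and 751, 1286 and 1690. Both were in the top 2740 of each library, and both lay near the start of the divergent gene senju. The eIF3f1 summit lay 33 bp upstream of the start, with no other start within 1000 bp (3R:4714010-4714419). It ranked 1569 in the combined list and 1277, 1486 and 3747 in the libraries, so that replicate 3 placed it lower than the other 2 libraries. Outside these 4 genes, eIF3m stood highest at rank 3139, with 11373, 4374 and 2369 in the libraries. The eIF3b promoter ranked 2264 in replicate 2, against 24268 in replicate 1, 16520 in replicate 3 and 12201 in the combined list. A thresholded summit of rank 1292 lay 1349 bp downstream of the eIF3g1 start.

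Among the genes of the cap-binding complex, eIF4A, eIF4E1, eIF4EHP and eIF4G2 had promoter peaks. eIF4A, the helicase that unwinds the start of the mRNA, had a summit 112 bp downstream of a start (2L:5982270-5982679). It ranked 1073 in the combined list and 758, 1261 and 1788 in the libraries, in the top 2740 of all 3. eIF4E1, the main cap-binding protein, had a summit 59 bp upstream of the start, rank 2542, with 3842, 1955 and 5629 in the libraries (3L:9402314-9402723). eIF4G2, a scaffold needed for male meiosis, had a summit 4 bp from a start that it shares with CG33111, rank 2409, with 1543, 5645 and 3959 in the libraries (3R:23819028-23819437). For both of these genes, only 1 library placed the peak in its top 2740, and they are the weakest of the 14.

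eIF4EHP, a cap-binding protein that does not engage eIF4G and represses translation of chosen mRNAs in the early embryo, had 2 overlapping peaks whose summits lay 245 bp apart (3R:24108826-24109235 and 3R:24109071-24109480). The summit 71 bp upstream of the start ranked 676, with 491, 721 and 1142 in the libraries. The summit 316 bp upstream ranked 1461, with 1180, 1044 and 3669 in the libraries, and lay closer to the start of the divergent gene CG18428, at 60 bp. The eIF4E5 gene was nearest to a summit of rank 2170 that lay 12546 bp upstream, inside CG32365 (3L:7882129-7882538). It ranked 8875, 4751 and 963 in the libraries, a spread wide enough that replicate 3 alone placed it in the top 2740.

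**Figure D1:**
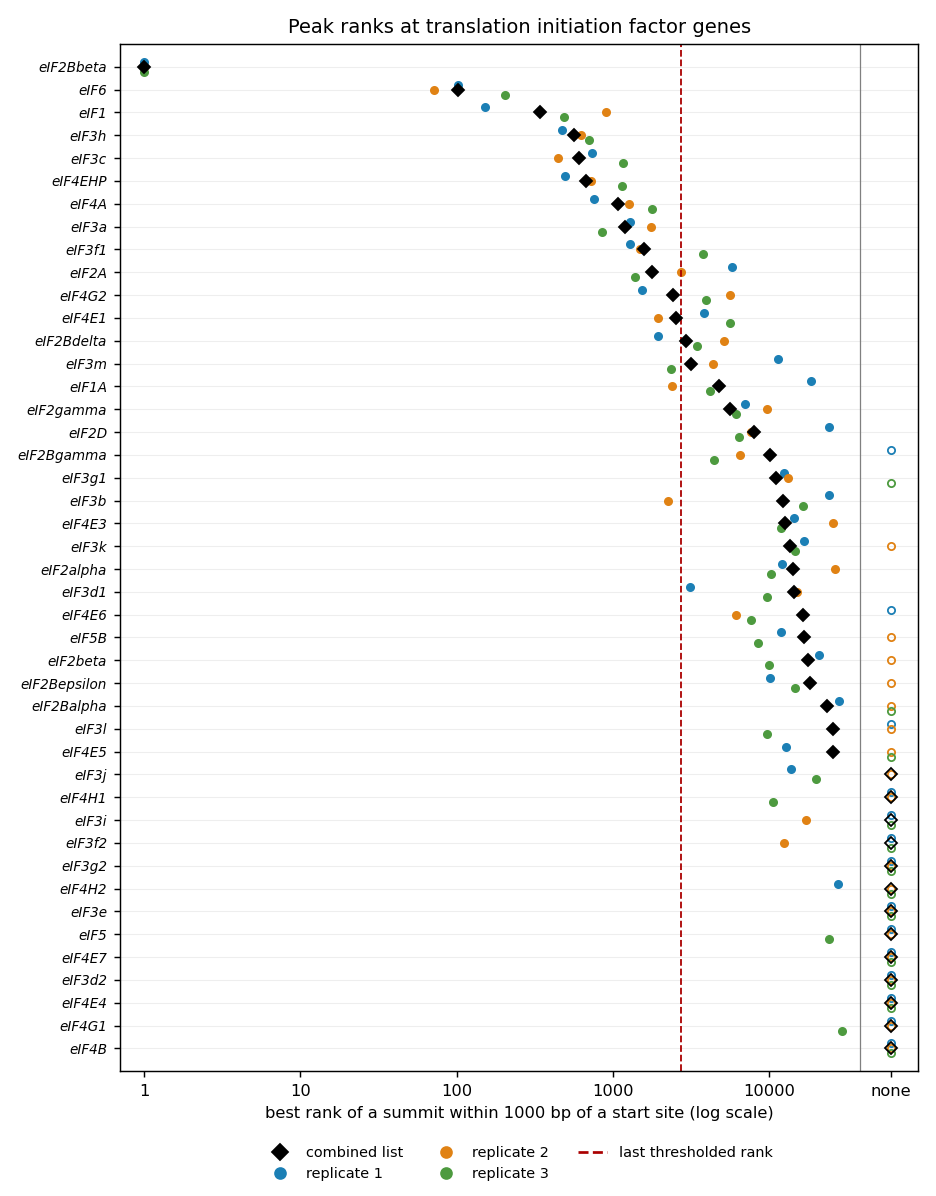
Rank by signal value (log axis, 1 the strongest) of the peaks at initiation factor genes in the combined list and in each of the 3 libraries. For each gene, the best summit within 1000 bp of a start is drawn. The eIF2Bbeta peak stands at rank 1 in the combined list and all 3 libraries. Genes such as eIF1A, eIF2A, eIF3b, eIF4E1 and eIF4G2 spread widely between libraries.

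Of the 12 genes with a thresholded peak, 8 were also reached by the top 2740 summits of all 3 libraries, namely eIF1, eIF2Bbeta, eIF3a, eIF3c, eIF3h, eIF4A, eIF4EHP and eIF6. This was 18.2% of the 44 genes, against 8.97% of all genes. Taken singly, the top 2740 summits reached 11 members in replicate 1, 13 in replicate 2 and 10 in replicate 3, where the shares of all genes were 15.1%, 14.6% and 15.2%. The mean was 11.3 ± 1.53 members (SD, n = 3). In all, 28 members were reached in no library, 6 in 1 library, 2 in 2 libraries and 8 in all 3. Of these classes only the last was counted over all genes, at 8.97%, so the others have no background beside them. The thresholded list was made from the same 3 libraries, so finding its peaks again in them is favoured by that choice. All 14 promoter peaks at members had a summit within 100 bp in each library's full list, against 87.8% of the 1733 thresholded promoter summits in the genome. Within 50 bp the contrast was gone, with 8 of 14 (57.1%) matched in all 3 libraries, against 58.8%.

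Replicate 3 ranked the member peaks lowest most often. Leaving aside the peak tied at rank 1, it gave the lowest standing to 9 of the 13 others and the highest to 2, while replicate 1 gave the highest to 7. The median ranks of the 14 peaks in replicates 1, 2 and 3 were 754.5, 1152.5 and 1273.5. Among the 1509 promoter peaks of the genome matched in all 3 libraries without a tie, replicate 3 gave the lowest standing to 36.4% and replicate 1 to 36.7%. Replicate 3 gave the highest standing to 32.5% of them and replicate 1 to 37.6%. With ties kept, the median ranks of matched promoter peaks of the genome in replicates 1, 2 and 3 were 1267, 1352 and 1350.5. The 13 include both peaks of eIF3h and both of eIF4EHP, and no test was made.

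The standing of the members against all genes changed with the depth of the list. The 500 strongest combined entries reached 3 members (6.82%), against 3.20% of all genes, and the 1370 strongest reached 8 (18.2%), against 8.22%. The 5000 strongest reached 15 members (34.1%), against 24.5%. The 10000 strongest reached 17 (38.6%), against 38.0%, and all 30000 entries reached 31 (70.5%), against 62.5%. The share of members was thus above that of all genes at each depth, by the least at 10000 entries, where the counts were nearly those of the background.

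**Figure D2:**
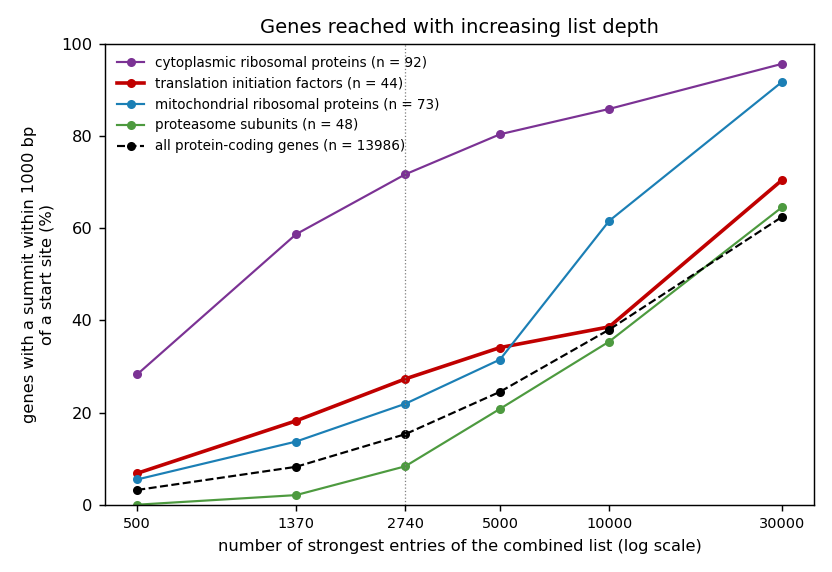
Share of genes with a summit in the promoter, in percent, against the number of strongest combined entries counted, for initiation factor genes, other lists of translation genes and all protein-coding genes. The initiation factor line lies above that of all genes up to 5000 entries and near it at 10000, where the shares are 38.6% and 38.0%.

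Other genes of protein synthesis gave different shares under the same rule. Cytoplasmic ribosomal protein genes had a thresholded promoter summit in 66 of 92 cases (71.7%) and mitochondrial ribosomal protein genes in 16 of 73 (21.9%). Aminoacyl-tRNA synthetases, which load tRNAs, had one in 7 of 33 (21.2%), and proteasome subunits, which degrade proteins, in 4 of 48 (8.33%). The initiation factors, at 27.3%, thus stood between the proteasome and the cytoplasmic ribosomal proteins. Elongation and termination factors had one in 4 of 10 (40%). These were eEF1gamma at rank 104, eEF1alpha1 at 335, eEF5 at 574 and eEF2 at 1501. eEF5 encodes the protein formerly named eIF5A and is no member by its symbol. Regulators of initiation had a promoter summit in 8 of 19 cases (42.1%). Among them were Lk6, a kinase of eIF4E, at rank 6, and pAbp, the poly(A)-binding protein, at rank 300. Their summits lay 979 bp and 508 bp from a start, so that of Lk6 was near the edge of the window. Thor, the eIF4E-binding inhibitor, had rank 689 with the summit 37 bp from a start.

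**Figure D3:**
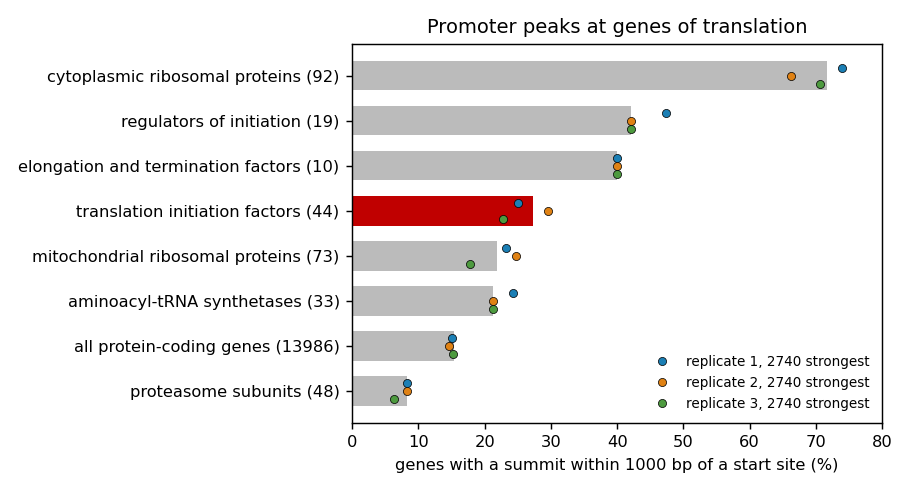
Share of each gene list with a summit in the promoter, in percent: bars give the thresholded list, points the top 2740 summits of each of the 3 libraries. Initiation factors at 27.3% lie below cytoplasmic ribosomal proteins at 71.7% and above proteasome subunits at 8.33%.

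The 14 promoter peaks at members lay close to the start. The median distance to the start of the member was 65 bp, and 10 of the 14 (71.4%) lay within 200 bp. Counted in the same way, the 2458 pairs of a protein-coding gene and a thresholded summit in its promoter had a median of 166 bp, with 56.1% within 200 bp. Measured instead to the nearest start of any protein-coding gene, the 14 had a median of 36 bp with 13 (92.9%) within 200 bp, against 118 bp and 65.0% for the 1733 promoter summits of the genome. Of the 14 summits, 9 were upstream and 5 downstream of the nearest start of the member. Measured to the annotated gene start alone, with alternative starts left out, the median was 185.5 bp. Medians taken from the summits of the libraries were 74, 50.5 and 94.5 bp.

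**Figure D4:**
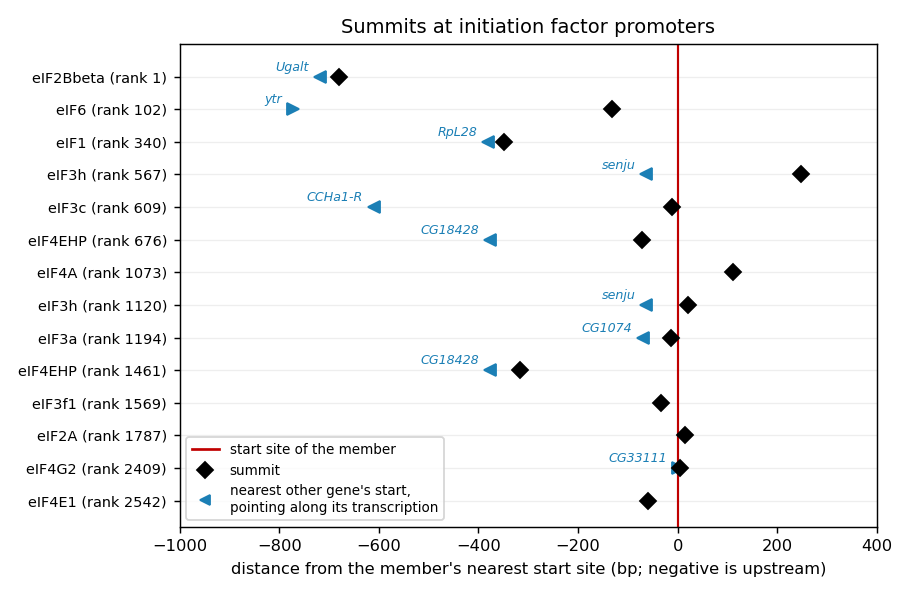
Distance of each member promoter summit from the nearest start site of its gene, in bp, negative upstream. Most of the 14 summits lie within 200 bp of the start, and the eIF2Bbeta summit lies farthest, 680 bp upstream.

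Shared promoter regions were common among these peaks. Of the 14, 10 (71.4%) had the start of another protein-coding gene within 1000 bp of the summit, against 56.2% of the 2458 pairs. Counted by gene, 9 of the 12 members with a peak (75.0%) had another start within 1000 bp of one of their own, against 63.4% of all genes with a peak. At 8 of the 10 peaks, from 6 members, the nearest other gene was divergent (80%), against 86.5% of the 1381 gene and summit pairs in such regions. At 3 of the 10 it started closer to the summit than the member did (30%), against 49.3%. Members lie close to other genes somewhat more often than genes in general: 23 of 44 (52.3%) had another start within 1000 bp, against 42.9%. Among those 23 members, 9 (39.1%) had a promoter peak, against 22.6% of all genes with such a neighbour. Of the 21 members without one, 3 (14.3%) had a peak, against 9.8%. A peak in a shared region cannot be assigned to one of its genes from these data.

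Words of known promoter and homeodomain sites were counted on both strands within 100 bp of the summits, as a description of the sequence. TATCGATA, the element bound by DREF, was at 3 of 14 member summits (21.4%), those of eIF1, eIF3a and eIF3f1 shown above, against 6.81% of the 1733 promoter summits. CGATA, which is contained in that word and is the core recognised by BEAF-32, was at 8 (57.1%), against 35.6%. TAAT, the core of many homeodomain sites, was at 11 (78.6%), against 81.7%, and the longer TAATTA, which contains it, at 1 (7.14%), against 12.2%. Within 50 bp TAAT was at 6 (42.9%), against 58.7%, and within 200 bp at 13 (92.9%), against 95.0%. For TAATTA the direction turned with the window: it was at 1 summit (7.14%), against 6.06%, within 50 bp, and at 5 (35.7%), against 24.2%, within 200 bp. TATCGATA was at 2 (14.3%) and 5 (35.7%) of the summits in those windows, against 4.15% and 9.35%, and CGATA at 4 (28.6%) and 12 (85.7%), against 20.9% and 52.6%. The word TGATNNAT, of the kind bound by Exd with a Hox protein, was at 2 (14.3%), against 11%. GAGAG was at 2 (14.3%), against 28.6%, though level within 50 bp at 14.3% and 13.9%, and CAGCTG at 1 (7.14%), against 13.6%. TATAAA was at 4 (28.6%), against 22.5%. GGTCACACT and CACGTG were at no member summit and at 2.71% and 2.94% of all. The median G and C content of the member windows was 45.0%, against 40.8%.

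Some of these words were also compared within 100 bp of the annotated gene start, whether or not a peak was there. TATCGATA was in 5 of the 12 members with a promoter peak (41.7%) and in 5 of the 32 without (15.6%), against 7.83% of 13968 genes. Those with a peak were eIF2Bbeta, eIF3a, eIF3f1, eIF4A and eIF6. Only eIF3a and eIF3f1 among them also held the word within 100 bp of a summit. CACGTG was in 3 of the 12 (eIF2A, eIF4A and eIF6) and in 1 of the 32 (eIF3f2), against 2.88% of genes. It was within 100 bp of no member summit. Other words went the other way. GGTCACACT was in 0 of the 12 and in 3 of the 32 (9.38%), against 5.28% of genes, and TATAAA was in 3 of the 12 (25.0%) and 12 of the 32 (37.5%), against 29.2%. These counts are small and no test was made. TAAT was in all 12 and in 28 of the 32 (87.5%), against 80.3%.

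The remaining 32 members had no thresholded promoter summit. For 19 of them the combined list held an entry within 1000 bp, at ranks from 2916 to 25643 with a median of 13630. Entries of such low rank include background regions. Besides those given above, the 19 were eIF2Balpha, eIF2Bepsilon, eIF3d1, eIF3k, eIF3l, eIF4E3, eIF4E6 and eIF5B, together with eIF4E5, whose own promoter held an entry of rank 25643. eIF4E3 is known for a role in the male germ line, and eIF5B joins the ribosomal subunits. The closest thresholded summit to these 32 genes was 1258 to 4979375 bp away, with a median of 14916.5 bp.

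The other 13 had no combined entry within 1000 bp: eIF3d2, eIF3e, eIF3f2, eIF3g2, eIF3i, eIF3j, eIF4B, eIF4E4, eIF4E7, eIF4G1, eIF4H1, eIF4H2 and eIF5, the last of these the factor that makes eIF2 give up its GTP. The 3 farthest from any combined entry were eIF4B at 587798 bp, eIF4G1 at 24872 bp and eIF4E4 at 8200 bp. The eIF4B gene, for a helper of the helicase, lies at 3L:27842669-27858271, near the end of an arm of 28110227 bp. The closest thresholded summit to this gene was 4979375 bp away. The eIF4G1 gene, the main scaffold, lies on chromosome 4 at 915297-930715. For 6 members no list of any library held an entry within 1000 bp.

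Where a factor is encoded by several genes, the copies differed in 3 sets and did not in the other 3. eIF3f1 had a promoter peak and eIF3f2 had none, and eIF4G2 had one while eIF4G1 had no combined entry in its promoter. The eIF3f1 peak was in the top 2740 of 2 libraries. That of eIF4G2, at a start shared with CG33111, was in the top 2740 of 1. Of the 7 genes of the eIF4E family, eIF4E1 and eIF4EHP had promoter peaks, and eIF4E3, eIF4E4, eIF4E5, eIF4E6 and eIF4E7 had none. The top 2740 summits reached eIF4E1 in 1 library and eIF4EHP in all 3. Neither gene of the pairs eIF3d1 and eIF3d2, eIF3g1 and eIF3g2, or eIF4H1 and eIF4H2 had one. A promoter peak was at 27.3% of the members and 15.3% of all genes, so a copy without one is the common case. How often copies of other genes differ was not counted.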

How the data were processed

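The 3 biological replicate libraries of 1 group were analysed through deposited narrowPeak lists on dm6. Per the deposited notes, each library's list was called on its own alignments and 1 control, the combined list on all 3 together, and the thresholded list on the irreproducible discovery rate. For the aligner, the peak caller and any version: not given in the sources used here. The deposited signal value has no stated statistic and served only for ranks. The deposited −log10 q has a ceiling, and the deposited summit offset gave positions.

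Start sites came from Ensembl release 115 (FlyBase 6.54) on Release 6. Summits within 1000 bp of a start were promoter summits, and summits within 100 bp were matched between lists. Genes past the rule are given beside the share of all 13986 genes. Scripts used Python 3.11.15, numpy 2.4.6 and pandas 2.3.3, and were tested on simulated data. The members and lists were chosen with earlier results of these data known. Named genes were all members, in full where a thresholded summit was in the promoter or nearest. Regulators were 19 of 21 listed symbols found in the annotation, with Tor read as mTor. Motif windows of 50 and 200 bp, other promoter windows, list depths and leaving out each replicate were alternatives. Lists on dm3 were not used. Read depth is unknown, so no counting error is given.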

Additional observations from a re-analysis of the deposited data

How the results depend on the processing

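The 12 members with a promoter peak became 10, 11 and 14 with windows of 200, 500 and 2000 bp. The shares of all genes were then 9.55%, 13% and 19%. With the 1370 to 5000 strongest entries the members became 8 to 15, where the shares of all genes were 8.22% to 24.5%. The count was 12 with the annotated gene start alone, against 13.7% of all genes, and 12 with overlap of the peak interval, against 16.1%. It was 8 to 9 with a replicate left out, where the share of all genes was 9.03% to 9.85%. All 30000 entries gave 31, against 62.5% of all genes. Members nearest to a summit, 11, became 6 with the 1370 strongest entries, where the share of all genes was 8.35%. They became 6 to 7 with a replicate left out, where the share was 9.02% to 9.85%. Members in the top entries of all 3 libraries, 8, became 4 with the top 1000 and 9 with the top 5000 of each. The share of all genes, 8.97%, became 3.98% and 13.8%. With a replicate left out the members were 8 to 9, against 10.3% to 10.8% of all genes. Fewer libraries had to agree there, so that count could not fall. Of 14 member peaks matched in all 3 libraries within 100 bp, 8 matched within 50 bp. The median distance of 65 bp became 185.5 bp with the annotated gene start alone. Shorter or longer lists and windows reach fewer or more genes by construction. For the promoter and nearest-gene counts, leaving out replicates 1, 2 and 3 in turn kept 1619, 1454 and 1624 of the 2740 thresholded summits. Those counts could therefore only stay or fall, as could matches under the stricter 50 bp limit. Leaving out alternative starts could likewise not shorten a distance. The cause of the size of these changes was not tested. Breaking ties in rank by the p column was not run, since no signal values were tied. No paired analysis was possible because all libraries form 1 group. Read depth, an untagged control and more than 3 libraries would be needed to set an error on the weaker peaks, such as those of eIF4E1 and eIF4G2, which only 1 library placed in its top 2740.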
